A study of Mus musculus with 2 samples.

Results

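Genes of RNA modification were examined for binding of NRF1 in mouse skeletal muscle. The group was taken by gene symbol, as the protein-coding RefSeq genes named Trmt, Pus, Nsun, Alkbh or Mettl with a number, plus Fto, Wtap, Ythdf1, Ythdf2, Ythdf3, Ythdc1 and Ythdc2. This gave 69 of 21000 protein-coding genes, and 13 of the 69 (18.8%) had an NRF1 peak in the promoter, beside 13.4% of all protein-coding genes. The strongest of these promoter peaks was at Mettl22, and a stronger one still lay just after the annotated start of Alkbh5. Of the m6A genes, the readers Ythdf1, Ythdf2 and Ythdf3 and the methyltransferase gene Mettl4 had promoter peaks, those of Ythdf2, Ythdf3 and Mettl4 being weak. Mettl14 and Alkbh5 had a peak just after the start, and Mettl3, Wtap, Fto, Ythdc1 and Ythdc2 had none nearby.

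The data are chromatin immunoprecipitation followed by sequencing (ChIP-seq), in which an antibody recovers a DNA-binding protein together with its DNA. NRF1 was profiled in nuclear extracts of skeletal muscle from wild-type mice, given in the study as male and, for this profile, as 9 weeks old, with no treatment or allele named in the labels. The labels give 2 libraries with the NRF1 antibody in 1 group, but in the study's own list of files the one of replicate 2 is called input DNA, and every peak carries the name of the library of replicate 1. Only 1 list of 3226 peaks was used, so no value below has a replicate error, and no test between conditions was possible. The extract holds nuclei of every cell type of the muscle, and a peak cannot be assigned to one of them. A peak list has no expression values, so the tissue label was not checked against marker genes.

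Modified bases are found in every class of RNA. Transfer RNA carries most kinds of them, placed by methyltransferases such as the Trmt and Nsun proteins and by pseudouridine synthases (Pus), and they steady the fold of the tRNA and its decoding. In messenger RNA the most common internal mark is N6-methyladenosine (m6A), which METTL3 and METTL14 write with the adaptor WTAP, FTO and ALKBH5 erase, and YTH-domain proteins read. NRF1, nuclear respiratory factor 1, binds a GC-rich palindrome near the start of many genes, among them nuclear genes that mitochondria need.

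The symbols do not all stand for RNA enzymes. By their known substrates, 48 of the 69 act on RNA or read it, 2 repair DNA (Alkbh2 and Alkbh3, the latter also acting on RNA), 9 modify proteins and 10 have no settled substrate. The 9 protein enzymes include Mettl22, a lysine methyltransferase, and Alkbh4, which acts on actin. The assignments of Nsun7, Trmt9b and Mettl17 to RNA are uncertain, and none of these genes had a promoter peak. Of the 48 RNA genes, 10 had a promoter peak, or 20.8% (Wilson 95% interval 11.7 to 34.3%), an interval that holds the share of all protein-coding genes.

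The sequences that NRF1 peaks at these promoters held are shown first. Each line gives 30 bases of the mm10 genome read 5′ to 3′ on the strand of the gene, with the copy of the palindrome in capitals. A copy has at most 1 mismatch to the 10-base palindrome, which is GCGCATGCGC and reads the same on both strands. Copies were searched within 100 bp of the summit, the point of strongest signal in a peak.
Mettl22, exact copy, chr16:8470738-8470767, plus strand: gccgccgcgtGCGCATGCGCgacccgagcc
Mettl22, chr16:8470770-8470799, plus strand: cgcttggaccGCGCCTGCGCaagctgtccg
Ythdf1, chr2:180920986-180921015, minus strand: gagcgacggtGCGCAGGCGCaatggtggcg
Nsun2, chr13:69611790-69611819, plus strand: atgactctctGCGCACGCGCtacgatcagg
Trmt2a, chr16:18248816-18248845, plus strand: aacgcccgcgGCGCATGCCCggccgcgcct
Pus7l, chr15:94543489-94543518, minus strand: aaaggcttctGGGCATGCGCactgtgtcac
Trmt11, chr10:30600667-30600696, minus strand: cgtggaggccGCGCAGGCGCacggtagtag
Alkbh4, chr5:136136136-136136165, plus strand: cctgcgtctcGCGCCTGCGCtcttaactga
Ythdf3, chr3:16183058-16183087, plus strand: tcacggtaccGCGCATGCGTctaaagtaca

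The exact palindrome was present at only 1 of these promoters, Mettl22, and the other copies each differed at 1 base. Counted from 1 at the 5′ end of the palindrome, with the palindrome's base first and the gene's base last, the change was A5C at Alkbh4 and at the second copy of Mettl22, and T6G at Ythdf1 and Trmt11. It was T6C at Nsun2, G9C at Trmt2a, C2G at Pus7l and C10T at Ythdf3.

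A promoter peak had its summit no more than 1000 bp upstream and 100 bp downstream of any start of a known RefSeq transcript. By this measure 18.8% of the members had a promoter peak (Wilson 95% interval 11.4 to 29.6%, for counting error only). The same share over all protein-coding genes was 13.4%, which lies within that interval. This reading holds for RefSeq starts only. With starts of the GENCODE M21 basic annotation, chosen after seeing the data, the shares were 24.6% and 13.8%. No interval was computed there, so whether it would hold the share of all genes is not known. Promoters rich in CpG dinucleotides, called CpG-rich here at a GC content of at least 55% and an observed to expected CpG ratio of at least 0.65 within 200 bp of a start, were more common among the members. They were present at 48 of the 69 members, or 69.6%, and at 49.5% of all genes. Among genes with such a start, 11 of 48 members (22.9%) had a promoter peak, beside 24.3% of all genes of that kind. Among the 21 members without a CpG-rich start, 2 had a peak, Mettl8 and Pus7l. That is 9.5% (Wilson 95% interval 2.65 to 28.9%), beside 2.69% of all genes without such a start. Among genes with a CpG-rich start, the share of members with a promoter peak was thus close to that of all genes. Its Wilson 95% interval, 13.3 to 36.5%, holds the 24.3% of all genes of that kind. Whether CpG content accounts for the members' share was not tested.

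**Figure D1:**
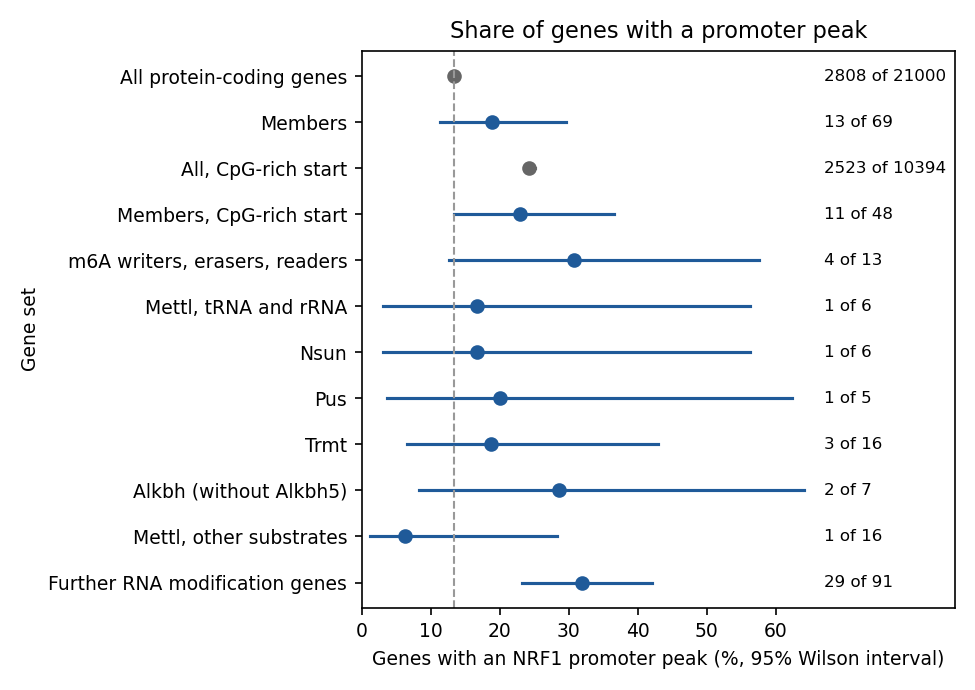
Share of genes with an NRF1 promoter peak (percent, x axis) by gene set (y axis); points are shares, lines are Wilson 95% intervals and the dashed line is the share over all protein-coding genes. With RefSeq starts the intervals of the 7 classes of members all span the dashed line. GENCODE M21 basic starts add Alkbh5 and Mettl14, both of the m6A class, and Mettl21a and Pus3, and class intervals were not computed for them. The interval of the 91 further genes of RNA modification starts at 23.2%, but they were listed by hand with earlier results of these data known.

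By RefSeq starts the m6A system had 4 promoter peaks in 13 genes, and 3 of them were at readers. Of the other genes of this class, Alkbh5 and Mettl14 gained a promoter peak with wider windows or GENCODE starts. At Ythdf1, a cytoplasmic m6A reader, the peak (chromosome 2, 180920903 to 180921137) reached a fold enrichment of 17.6. This value divides the summit's signal by the control background, as the authors' peak caller computed it. At Ythdf2, the reader best known for sending mRNA to decay, the peak (chromosome 4, 132212204 to 132212396) reached 7.26. At Ythdf3, a further paralog, the peak (chromosome 3, 16183047 to 16183198) reached 5.11. The 3 summits lay before the start, at -91, -36 and -77 bp. Ythdf1 was thus above the upper quartile of all promoter peaks, and Ythdf2 and Ythdf3 were below the lower one.

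The nuclear reader Ythdc1 and the helicase reader Ythdc2 had no promoter peak, and the nearest summits were at -738683 and -448258 bp from a start. The fourth peak of this class was at Mettl4, which methylates U2 small nuclear RNA, with a fold enrichment of 4.84 and its summit 13 bp after the start. Of the writer of m6A in mRNA, the catalytic subunit gene Mettl3 and the adaptor gene Wtap had no promoter peak, with nearest summits 284813 and 31473 bp after a start. For Mettl14, which encodes the partner of METTL3, a peak of fold enrichment 6.34 had its summit 129 bp after the start, just beyond the promoter window. Mettl16, which acts on U6 small nuclear RNA, and Mettl5, which acts on ribosomal RNA, had none. Of the erasers, Fto had its nearest summit 2496950 bp after the start, and Alkbh5 is described with the peaks after the start.

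Among the Trmt genes, 3 of 16 had a promoter peak. Trmt2a encodes the enzyme that makes 5-methyluridine in cytosolic tRNA, and its peak (chromosome 16, 18248659 to 18248945) had a fold enrichment of 16.2. At Trmt11, whose product methylates guanosine in tRNA, the peak (chromosome 10, 30600489 to 30600902) reached 13.1 and its summit lay in a coding exon, 39 bp after the start. Trmt1l, a paralog of the dimethylguanosine methyltransferase gene Trmt1, had a value of 10.4 on chromosome 1 from 151428474 to 151428824. No promoter peak was called at Trmt1, Trmt2b, Trmt5, Trmt6, Trmt9b, Trmt10a, Trmt10b, Trmt10c, Trmt12, Trmt13, Trmt44, Trmt61a and Trmt112. These include both subunits of the 1-methyladenosine enzyme of tRNA (Trmt6 and Trmt61a) and Trmt10c, a subunit of mitochondrial RNase P.

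In each of the Nsun, Pus and tRNA or rRNA Mettl classes a single gene had a promoter peak. Nsun2, the 5-methylcytosine enzyme of tRNA and mRNA, had a peak (chromosome 13, 69611652 to 69612100) with a value of 17.0, whereas Nsun3, Nsun4, Nsun5, Nsun6 and Nsun7 had none. Pus7l, a paralog of the pseudouridine synthase gene Pus7, had a value of 13.5 on chromosome 15 from 94543306 to 94543592. Pus1, Pus3, Pus7 and Pus10 had no promoter peak. Mettl8, which makes 3-methylcytidine in mitochondrial tRNA, had a value of 20.3 on chromosome 2 from 71055458 to 71055748. Mettl1, Mettl2, Mettl6, Mettl15 and Mettl17 had none.

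Of the 7 Alkbh dioxygenase genes other than Alkbh5, 2 had a promoter peak. The Alkbh4 peak (chromosome 5, 136136033 to 136136247) reached 13.0, with the summit 1 base before a start. The Alkbh6 peak (chromosome 7, 30308628 to 30308824) had the lowest value of the members, 3.31, and ranked 2604 of 2607 promoter peaks. Its q-value was 0.0211, above the false discovery rate of 0.01 that the methods give as the limit, and with it left out 12 of 69 members had a promoter peak. Alkbh1, Alkbh2, Alkbh3, Alkbh7 and Alkbh8 had none. The 16 remaining Mettl genes, which act on proteins or have no settled substrate, had a single promoter peak. It was the strongest of the members' promoter peaks, at Mettl22 on chromosome 16 from 8470633 to 8471113, with a fold enrichment of 26.5 and rank 118. Mettl7a1, Mettl7a2, Mettl7a3, Mettl7b, Mettl9, Mettl11b, Mettl18, Mettl21a, Mettl21c, Mettl21e, Mettl23, Mettl24, Mettl25, Mettl26 and Mettl27 had no promoter peak.

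The 13 peaks had fold enrichments of 3.31 to 26.5, within a range of 3.01 to 49.95 over all promoter peaks. Their median fold enrichment was 13.1 (interval 5.11 to 17.6 from binomial order statistics), beside 11.1 over all 2607 promoter peaks, whose quartiles were 7.90 and 16.4. Of the 13, 8 were above the overall median and 4 were above the upper quartile, namely Mettl22, Mettl8, Ythdf1 and Nsun2. The peaks were 137 to 481 bp wide.

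**Figure D2:**
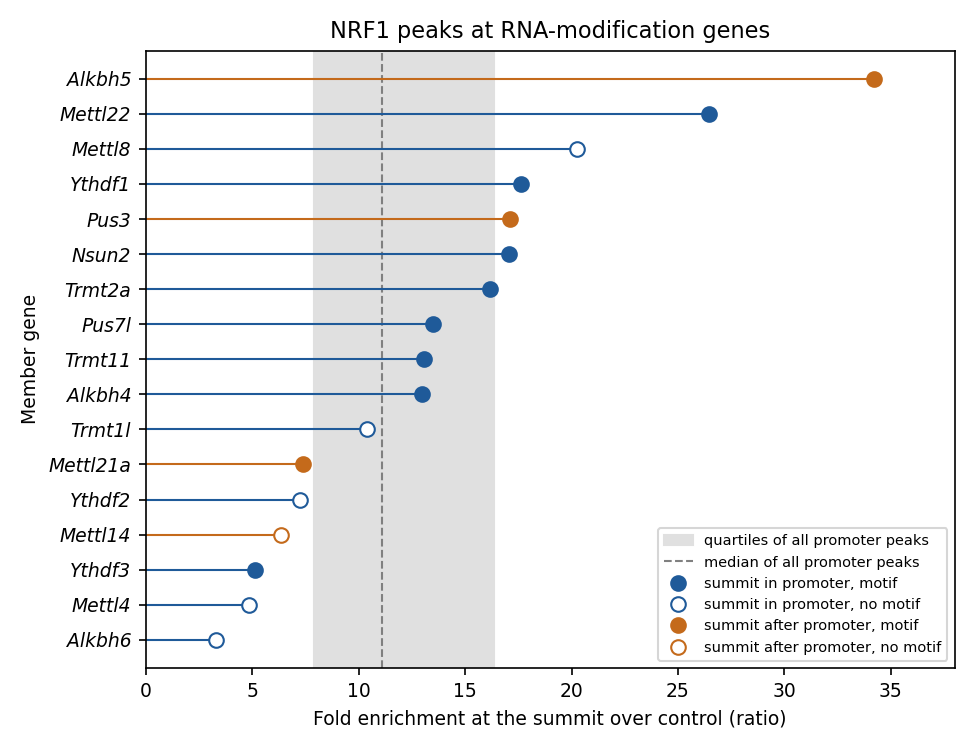
Fold enrichment at the summit (ratio over control, x axis, from 0) of each member gene with a peak in the promoter or at most 1000 bp after the start (y axis), with filled points for peaks that hold the motif and open points for those that do not. The grey band marks the quartiles, 7.90 and 16.4, and the dashed line the median, 11.1, of all promoter peaks; Alkbh5 at 34.2 and Mettl22 at 26.5 lie farthest above the band.

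The motif was present at 8 of the 13 promoter peaks, or 61.5% (Wilson 95% interval 35.5 to 82.3%), and at 65.9% of all promoter peaks. The exact palindrome was present at 1 of the 13 and at 10.9% of all promoter peaks. Peaks with the motif had fold enrichments of 5.11 to 26.5 with a median of 14.8, and the 5 peaks without it had 3.31 to 20.3 with a median of 7.26, so that the ranges overlapped. Over all promoter peaks these medians were 12.9 and 8.58. The nearest copy was centred within 25 bp of the summit at 4 of the 8 peaks (Mettl22, Alkbh4, Ythdf3 and Trmt11), and at Nsun2 it was 84.5 bp away. Over all promoter peaks with the motif this held for 1305 of 1719, and the median distance was 12.5 bp, beside 23.0 bp at the members.

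With 2 mismatches allowed, 11 of the 13 peaks held a copy, beside 91% of all promoter peaks. The 2 left were Trmt1l and Mettl8, whose best matches had 3 and 4 mismatches. The best matches nearest the summit are given here for the strong peak at Mettl8, for Trmt1l and for Ythdf2, with the aligned bases in capitals.
Mettl8, chr2:71055575-71055604, minus strand: gctgcgccgtAGGGCTGCGCagtgggtcgg
Trmt1l, chr1:151428612-151428641, plus strand: tccgccacacGCTTCTGCGCagtctgtggt
Ythdf2, chr4:132212214-132212243, minus strand: gtgagagtcaGCGCTCGCGCcgcgcgcgcc

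The Mettl8 peak, with a value of 20.3, was therefore stronger than 7 of the 8 member peaks that held the motif. Most of the 5 peaks without a copy were weak by contrast, with Alkbh6, Mettl4 and Ythdf2 below the lower quartile of all promoter peaks.

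The upstream sequence is shown for Mettl22, the strongest promoter, and for the paralogs Ythdf1 and Ythdf2, which had peaks with and without the motif. Each run is the 250 bases before the start as given by RefSeq for GRCm38.p6, the assembly of mm10, with copies of at most 1 mismatch in capitals.
Mettl22, chr16:8470563-8470812, plus strand: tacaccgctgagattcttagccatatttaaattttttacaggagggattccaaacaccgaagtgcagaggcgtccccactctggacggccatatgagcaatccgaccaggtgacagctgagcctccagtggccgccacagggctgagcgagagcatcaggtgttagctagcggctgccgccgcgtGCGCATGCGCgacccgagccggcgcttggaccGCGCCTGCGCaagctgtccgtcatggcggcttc
Ythdf1, chr2:180920937-180921186, minus strand: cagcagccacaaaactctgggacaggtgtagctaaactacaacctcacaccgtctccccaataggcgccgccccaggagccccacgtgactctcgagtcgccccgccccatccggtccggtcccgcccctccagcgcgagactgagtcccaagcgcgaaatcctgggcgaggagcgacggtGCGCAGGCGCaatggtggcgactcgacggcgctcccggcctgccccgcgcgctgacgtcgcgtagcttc
Ythdf2, chr4:132212257-132212506, minus strand: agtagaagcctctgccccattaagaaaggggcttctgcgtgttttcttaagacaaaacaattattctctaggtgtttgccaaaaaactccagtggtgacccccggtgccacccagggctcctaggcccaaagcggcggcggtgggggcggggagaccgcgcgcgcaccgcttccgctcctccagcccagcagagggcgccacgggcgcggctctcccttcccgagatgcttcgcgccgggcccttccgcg

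At Mettl22 the exact copy was centred at -60.5 bp and the other copy at -28.5 bp from the start. At Ythdf1 the single copy was centred at -64.5 bp. The stretch of Ythdf2 held no copy, and its best match lay after the start, at 27.5 bp.

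Read from the sequence side, 10 of the 69 members had a copy somewhere in a promoter, or 14.5%, and 12.1% of all protein-coding genes did. Of the 10, 8 had a promoter peak, beside 75.4% of all genes with a copy. Of the 59 members with no copy, 5 had a promoter peak, beside 4.81% of all genes with none. The members with a copy and no promoter peak were Pus3 and Mettl23, and their copies were these.
Pus3, chr9:35558524-35558553, plus strand: gcggcgcagtGCGCAGGCGCgggcccggcg
Mettl23, chr11:116843154-116843183, plus strand: gcttggcctcGCGGATGCGCttcttgctct

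The copy at Pus3 had the same 10 bases as those of Ythdf1 and Trmt11, which had a promoter peak, and was centred at -21.5 bp from the start. That of Mettl23, a gene of a histone methyltransferase, was C4G at -346.5 bp, and the nearest summit was 9726 bp after the start.

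Summits at the members were close to the start. They lay between -127 bp at Nsun2 and 49 bp at Trmt1l, with 8 before and 5 after it, and 12 of the 13 were within 100 bp of a start, beside 71.2% of all promoter peaks. For 6 of the 13, the same peak also lay in the promoter of another protein-coding gene, or 46.2%, beside 21.4% of all protein-coding genes with a promoter peak. All 6 pairs were arranged head to head on opposite strands. The starts were 71 bp apart at Alkbh4 and Lrwd1, 107 bp at Trmt1l and Swt1 and 138 bp at Mettl8 and Dcaf17. They were 153 bp apart at Pus7l and Irak4, 189 bp at Trmt2a and Ranbp1 and 553 bp at Nsun2 and Srd5a1. A peak in such a promoter cannot be assigned to one gene of the pair, and this holds for 5 of the 10 RNA genes with a promoter peak. Ranbp1 encodes a partner of the nuclear transport factor RAN, and Lrwd1 a protein of the origin recognition complex. The Mettl4 peak also lay in the promoter of a non-coding gene, 2700099C18Rik, and so cannot be assigned to one gene either. The 6 peaks in the promoter of no other gene were those of Mettl22, Trmt11, Alkbh6, Ythdf1, Ythdf2 and Ythdf3.

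**Figure D3:**
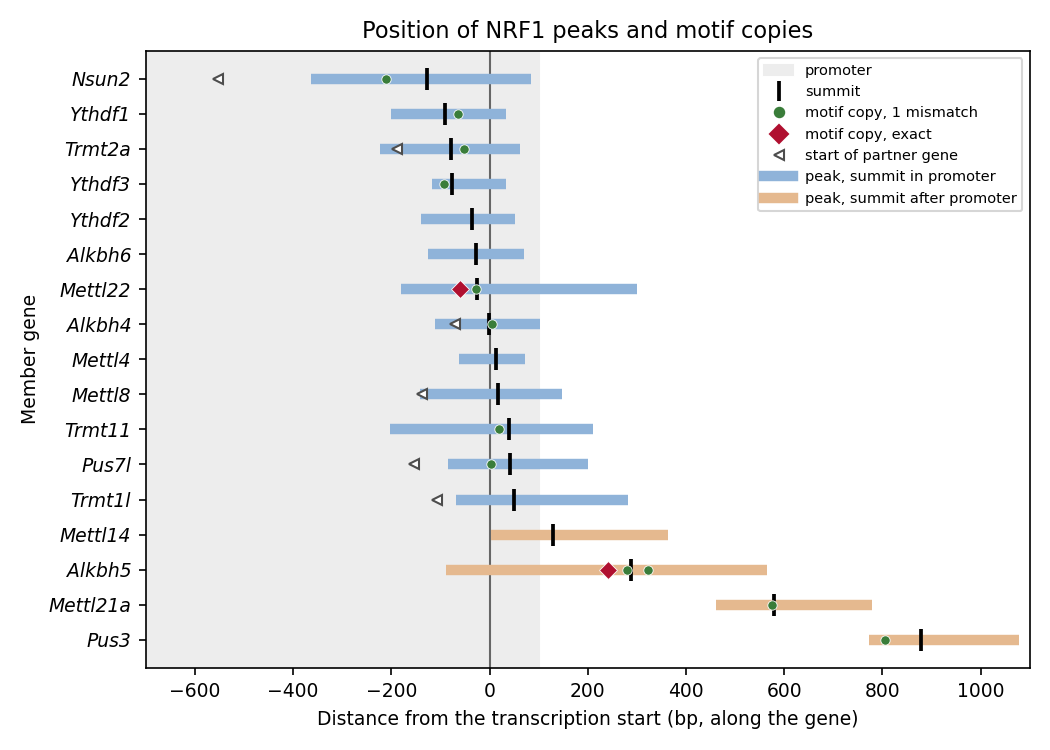
Peaks at member genes by distance from the transcription start (bp along the gene, x axis), one gene per line (y axis), with bars for the peaks, ticks for summits, circles and diamonds for motif copies and open triangles for the start of a head-to-head partner gene. The 13 summits in the promoter (grey area) lie between -127 and 49 bp, and those of Mettl14, Alkbh5, Mettl21a and Pus3 lie 129 to 878 bp after the start.

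At 4 members without a promoter peak, a summit lay within 1000 bp after the start. Summits more than 100 and up to 500 bp after a start belonged to 2 of the 69 members, Mettl14 and Alkbh5, and such summits at genes with no promoter peak were found for 1.1% of all protein-coding genes. Up to 1000 bp the count was 4 of 69, with Mettl21a and Pus3, beside 1.27% of all genes. Copies of the motif at 3 of these peaks are shown in the same form as those of the promoters.
Alkbh5, exact copy, chr11:60537909-60537938, plus strand: ggcctcgtctGCGCATGCGCcggcctctcc
Alkbh5, chr11:60537949-60537978, plus strand: cggcacgcacGCGCATGCTCaaagtacgtg
Mettl21a, chr1:64617175-64617204, minus strand: gcaaggctgtGCGCTTGCGCggctcgggta
Pus3, chr9:35559350-35559379, plus strand: tcagaaacctGCGCATGCGGtgggcttcgg

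Alkbh5 had the strongest peak of any member, with a fold enrichment of 34.2, and it ranked 23 of all 3226 peaks. Alkbh5 removes m6A from RNA. Its peak (chromosome 11, 60537594 to 60538248) was 655 bp wide, and it held 3 copies of the motif, 1 of them exact. The summit was 289 bp after the RefSeq start, in an untranslated exon. At Pus3, a pseudouridine synthase gene, the peak (chromosome 9, 35559332 to 35559638) reached 17.1. Its summit, 878 bp after the start of Pus3, also lay in the promoter of Ddx25, a gene of an RNA helicase of the male germ line. At Mettl21a, which methylates HSP70 chaperones, the value was 7.40 and the summit lay 579 bp after the start, with a copy that had A5T. The Mettl14 peak, on chromosome 3 from 123385626 to 123385986, held no copy, and its best match had 4 mismatches.

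The call at these 4 genes depended on which starts were annotated. GENCODE M21 lists starts nearer to each of the 4 summits, which lay at -6 bp for Alkbh5, 70 bp for Mettl14, -17 bp for Mettl21a and -22 bp for Pus3. With GENCODE M21 basic starts, an alternative chosen after seeing the data, 17 of the 69 members had a promoter peak, or 24.6%, beside 13.8% of the 20499 of these protein-coding genes that have a GENCODE entry. No interval was given for that share, so the statement that the members' interval holds the share of all genes covers RefSeq starts only. All 13 genes of the RefSeq count were kept. The other 52 members had no summit within 5000 bp of a start, and the nearest was 9698 bp after it, at Pus1.

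To set these genes beside the rest of the pathway, 91 further genes of RNA modification that the symbols do not take were listed by function. Of these 29 had a promoter peak, or 31.9% (Wilson 95% interval 23.2 to 42.0%). The share of all protein-coding genes, 13.4%, lies below that interval. The list was made by hand with earlier results of these data known, so the interval describes these genes and is no test of enrichment. Among the 66 further genes with a CpG-rich start the share was 33.3% (23.2 to 45.3%), an interval that holds the 24.3% of all genes of that kind. No difference between the 2 sets was tested. By role, 4 of 6 genes of RNA cap methylation had a peak (Cmtr1, Cmtr2 and Pcif1 of the mRNA cap and Tgs1 of the cap of small nuclear RNA), 6 of 13 of ribosomal RNA modification and 5 of 12 of pseudouridylation. For the wobble uridine of tRNA it was 4 of 14 genes, for other tRNA modifications 8 of 29 and for further m6A writer genes, 5 of the writer complex and the ribosomal RNA enzyme gene Zcchc4, 2 of 6 (Cbll1 and Rbm15b). None of the 6 genes of adenosine deamination and none of the 4 further readers had one. The roles were also split by hand and hold few genes. Wilson 95% intervals were wide, 23.2 to 70.9% for ribosomal RNA modification and 19.3 to 68.1% for pseudouridylation. These, like that of other tRNA modifications, lay above the 13.4% of all protein-coding genes but held the 24.3% of those with a CpG-rich start. The interval of cap methylation lay above both shares, and those of the wobble uridine and the further m6A writer genes held both. No role was tested. As at Mettl14 and Alkbh5, a summit lay just after the start of 3 further genes without a promoter peak, at 276 bp for Adat3, of tRNA adenosine deamination, 178 bp for Trmo and 148 bp for Wdr4, both of tRNA methylation. The 5 highest fold enrichments were 22.5 at Cmtr2 and 19.4 at Pcif1, both of the mRNA cap, 17.0 at Thumpd3, a tRNA methyltransferase gene, 15.4 at Rpusd4, a mitochondrial pseudouridine synthase gene, and 15.0 at Elp6, of the Elongator complex. All of them were below that of Mettl22.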

How the data were processed

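NRF1 ChIP-seq of wild-type mouse skeletal muscle was analysed from 1 deposited list of narrow peaks in mm10. Per the study's methods, the authors mapped single-end reads with Bowtie, kept unique reads, removed blacklisted regions and called peaks with MACS2 against input DNA. The authors gave for each peak a fold enrichment (ratio of the signal at the summit to the control), p-values and q-values as −log10, a score and the position of the summit. The peak names mark duplicate reads as removed, and the blacklist named in the methods is of the human genome. The methods also name the broad mode of MACS2 and a limit of 0.01 on the false discovery rate, whereas the list has the narrow layout with summits, on which all positions and folds here rest, and 7 of its peaks have a q-value above 0.01. Read depth is not given in the list, so a site under the threshold cannot be told from an unbound one.

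Starts were those of 45756 known RefSeq transcripts of GRCm38.p6. A gene counted as protein-coding if it had a known coding transcript. Trmt61b is annotated as non-coding there and was left out. Enzyme roles and the further genes were listed by hand from general knowledge. The members and lists were chosen with earlier results of these data known. All members with a promoter peak are named, and of the further genes the 5 with the highest fold and examples chosen after their values were seen, and sequences are the copies nearest the summit, with exact copies added after seeing them. Overlapping copies were counted once. No test across genes was run, and shares are set beside those of all genes. Python 3.11.15, pandas 2.3.3, pysam 0.24.0 and scipy 1.17.1 were used, and the scripts were tested on simulated data. RefSeq's promoter table held 56 of the 69 members. Alternatives were other promoter windows, thresholds, mismatches and start annotations.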

Additional observations from a re-analysis of the deposited data

How the results depend on the processing

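Of 35 alternative values for 4 results, 34 stayed within 1.5 times the count reported or within the interval of the median. These limits are wide, since that interval ran from 5.11 to 17.6. Counts of subsets were compared with the main count despite their smaller totals. The limits do not ask whether an interval still holds the share of all genes. The number of members with a promoter peak ran from 10, of the 48 RNA genes alone, to 17 with GENCODE M21 basic starts. It was 11 with a fold enrichment of at least 5, where Alkbh6 and Mettl4 dropped out. Windows of 500 bp either side, or of 2000 bp before to 500 bp after a start, and any overlap of 1 bp each gave 15 by keeping the 13 and adding Alkbh5 and Mettl14. The median fold enrichment of the members' promoter peaks ran from 13.1 to 13.5. The count of promoter peaks at members with the motif moved most with no mismatch, to 1. The further genes with a promoter peak ran from 29 to 32. No paired analysis was possible because there is a single group and the 1 list used carries only the name of replicate 1, and so no replicate could be left out either. Read depth is unknown and limits each statement on genes without a peak. Of the alternatives, 3 were chosen after seeing the data: the limit of 0.01 on the q-value, coding starts only and GENCODE starts.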

Other observations

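Of the 5 promoter peaks of members without the motif, 3 held the 6 bases TGCGCA within 100 bp of the summit. This sequence reads the same on both strands and can overlap a copy of the palindrome. It was chosen after the sequences had been seen. The 3 peaks were those of Mettl8, Trmt1l and Mettl4, and the peaks of Ythdf2 and Alkbh6 lacked it. Over all promoter peaks without the motif, 359 of 888 held it, or 40.4%, and over those with the motif 59.1% did. Around starts of protein-coding genes without a promoter peak, in windows of the same length, 3.69% held it. Those windows were centred on starts rather than summits and were not matched for CpG content, while TGCGCA itself holds a CpG. The shares are therefore not a like comparison. These are descriptions of sequence, and whether NRF1 contacts these bases was not tested.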
